A study of Mus musculus with 94 samples.

Results

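Mitochondrial ribosomal protein genes were examined in single blood stem cells of the mouse. The family was taken as every gene of the table whose symbol begins with Mrpl or Mrps and a digit, without pseudogene symbols, and it held 77 of 13244 genes. Of these, 48 carried Mrpl symbols, given to proteins first assigned to the large subunit, and 29 carried Mrps symbols, given to the small subunit. All cells were of C57BL/6 strain and had grown from fetal liver stem cells placed in recipient mice 6 months before bone marrow was taken. Sorted cells carried Cd45.2, c-Kit, Sca-1 and Cd150 and lacked lineage markers and Cd48, a gate for long-lived stem cells, and they were separated on a Fluidigm C1 chip. The groups were 46 cells labelled Ski-KO, in which the gene for the co-repressor Ski is named as lost, and 48 cells labelled Ski-WT. How Ski was removed, and in which cells, is not given in the sources used here. The Ski-KO cells carried 2 label prefixes, 051716 with 27 cells and 051816 with 19 cells, and the 48 Ski-WT cells had 061016. No animal, donor or culture is named, so each genotype counted as 1 sample, no test was made, and genotype and prefix cannot be told apart.

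Mitochondria keep a ribosome of their own, which makes the few proteins encoded by mitochondrial DNA, all of them subunits of the respiratory chain. Its RNA comes from the mitochondrial genome, whereas its proteins are encoded in the nucleus, made in the cytosol and imported. Some of these proteins have a counterpart in the bacterial ribosome and others were added in the mitochondrial lineage. Stem cells in bone marrow are known for a low rate of protein synthesis and a reliance on tight control of mitochondrial activity.

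Expression was given as log2(TPM + 1), where TPM, a count of transcripts relative to a fixed total, is scaled by gene length, so that levels can be compared between genes. The depth of the libraries is unknown. Genes above 0 per cell had a median of 3248 in prefix 051716, 3679 in prefix 051816 and 3670.5 in the Ski-WT cells. No 2 cells had identical values. Of the gate markers, Kit reached 5 TPM in 79 of 94 cells, Ly6a, which encodes Sca-1, in 56, and Slamf1, which encodes Cd150, in only 11, while Cd48, which the gate excludes, reached it in 0. Hba-a1 and Hbb-b1 of the erythroid list and Cd4 of T cells reached it in 0 cells, but Lyz2 and Prtn3 of the granulocyte and monocyte list reached it in 56 and 57 cells. Summed TPM of that list had medians of 306 (range 0 to 3654) for 051716, 256 (0 to 2377) for 051816 and 444 (0 to 2678) for Ski-WT, and its part in the results was not tested. In the same list Mpo, Elane, Ctsg and Csf1r, 4 of 6 genes, were at 5 TPM in 0 cells.

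Most members were found in a minority of cells, at a level above that of the median gene. The median member had a mean TPM of 85.4 and reached 5 TPM in 33% of the 94 cells, compared with 14.3 TPM and 9.57% of cells for the median of all genes in the table. No member was missing from all cells. The share of cells at 5 TPM or more ran from 6.38% to 79.8%, and it was 50% or more for 13 members, 25% or more for 49 and 10% or more for 76. Together the 77 genes made up a mean of 0.901% of the TPM of a cell, against 2.96% for 80 nuclear genes of oxidative phosphorylation. The share was 22% for 80 genes taken by symbols of cytosolic ribosomal proteins, with Rpl22l1 among them. The 8 members with the highest mean TPM held 32.8% of the family total.

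By mean log2 value the highest member was Mrpl33, which encodes a small protein of the large subunit with a bacterial counterpart, at a mean log2 value of 6.58 and a mean of 442 TPM. It reached 5 TPM in 41 of 48 Ski-WT cells (85.4%), in 18 of 27 cells of prefix 051716 (66.7%) and in 16 of 19 cells of prefix 051816 (84.2%). Even this gene was thus below 5 TPM in some cells of every prefix. Mrpl42, a mitochondria-specific protein of the large subunit, followed with a mean log2 value of 6.34 and had the highest mean TPM, 541, and Mrps33, a mitochondria-specific protein of the small subunit, with 6.01. The next members were Mrpl23 (5.34), whose bacterial counterpart sits at the exit of the peptide tunnel, Mrpl18 (5.10), Mrpl24 (4.94), Mrps21 (4.91) and Mrps14 (4.87). The SD over cells of the log2 value was 4.13 in the Ski-KO cells and 3.21 in the Ski-WT cells for Mrpl33, so neighbours in this order lay closer to each other than the spread between cells. Reads of Mrpl23, Mrpl27, Mrpl48 and Mrps36 could be shared with copies listed as pseudogenes in RefSeq, which makes their values uncertain.

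At the low end, 5 members were above 0 in under 25% of the cells of either genotype. These were Mrps22, Mrpl38, Mrpl37, Mrps26 and Mrpl47, of which Mrps22 was the lowest at a mean of 2.64 TPM, and they were left out of the differences below. Mrpl37 was at 5 TPM or more in 0 of 27 cells of prefix 051716, 4 of 19 cells of prefix 051816 and 8 of 48 Ski-WT cells. Among the other 72 members, the lowest mean log2 values belonged to Mrps24 (1.08), Mrps30 (1.08), Mrps6 (1.10) and Mrps18b (1.19).

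**Figure D1:**
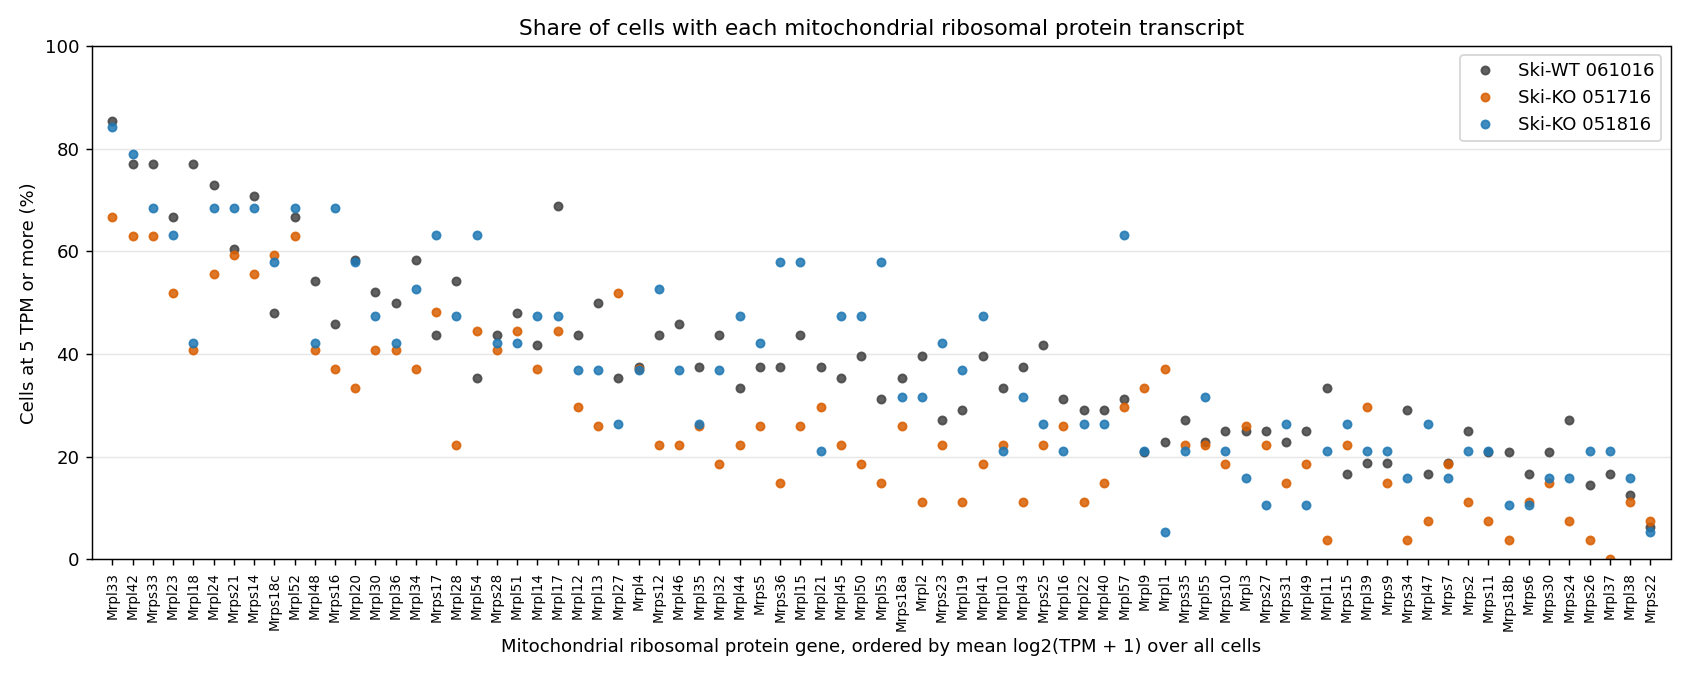
Share of cells at 5 TPM or more (vertical axis, percent) for the 77 mitochondrial ribosomal protein genes (horizontal axis), ordered by mean log2(TPM + 1) over all 94 cells. Each point is the share in 1 label prefix. Mrpl18 has a Ski-WT point at 77.1% far above both Ski-KO points (40.7% and 42.1%), and the 051716 points lie lowest for many members.

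Per cell, the mean log2 value over the 77 genes was lowest in prefix 051716, followed by prefix 051816 and the Ski-WT cells. The lowest, median and highest cells had module means of 1.27, 2.18 and 3.71 in prefix 051716. In prefix 051816 these were 1.56, 2.47 and 4.85, and in the Ski-WT cells 1.29, 2.80 and 4.95. The ranges of the 3 prefixes overlapped over most of their length. The mean over cells was 2.19 ± 0.59 (SD over 27 cells) in prefix 051716, 2.71 ± 0.87 (SD over 19 cells) in prefix 051816 and 2.83 ± 0.82 (SD over 48 cells) in the Ski-WT cells. The Ski-KO cells as a whole were therefore 0.42 below the Ski-WT cells, made up of -0.63 in prefix 051716 and -0.11 in prefix 051816. Without Mrpl18 and Mrps18c the values were -0.63 and -0.10, close to those with these genes.

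Counted as genes present, a cell of prefix 051716 held a median of 20 of the 77 members at 5 TPM or more (range 10 to 38). The median was 27 (16 to 52) for prefix 051816 and 28.5 (12 to 56) for the Ski-WT cells. The share of TPM was ordered otherwise. The family took a mean of 0.971% of the total in prefix 051716, 0.938% in prefix 051816 and 0.846% in the Ski-WT cells, with ranges of 0.455% to 1.72%, 0.571% to 1.28% and 0.266% to 1.53%. Medians of this share were 0.899%, 0.963% and 0.794%, so both Ski-KO prefixes were above the Ski-WT cells by mean and by median. On this linear scale the log2 ratio of module means was 0.18 toward the Ski-KO cells. The direction of the family's difference thus turned with the scale.

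**Figure D2:**
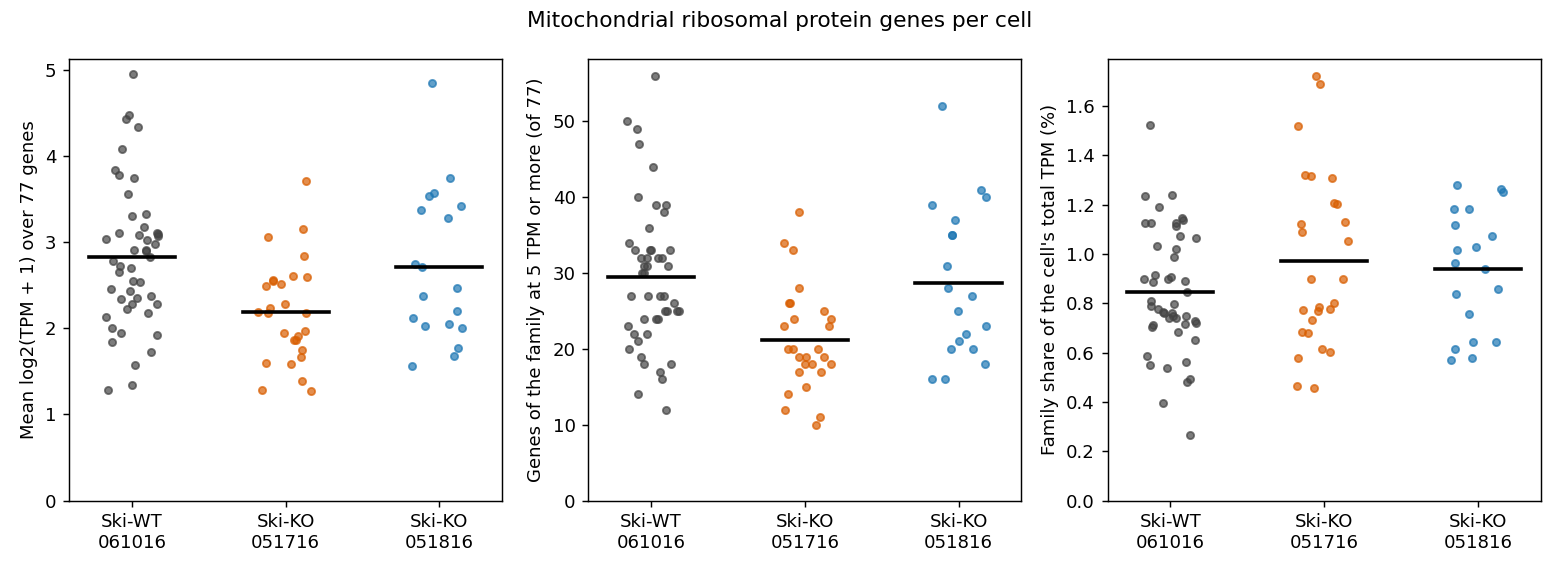
Mean log2(TPM + 1) over the 77 genes (left), number of the 77 genes at 5 TPM or more (middle) and share of the total TPM in percent (right) for each cell, by label prefix on the horizontal axis. Points are cells and black lines are means over cells, and prefix 051716 is lowest in the left and middle panels (means of 2.19 and 21.1) and highest in the right one (0.971%).

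The module mean followed the number of genes found in the cell. Across all 94 cells the Pearson correlation of the module mean with the number of genes above 0 was 0.77 and the Spearman correlation 0.74. Pearson values within prefixes were 0.73 in 051716 (27 cells), 0.90 in 051816 (19 cells) and 0.74 in the Ski-WT cells (48 cells). The number of genes found also varied between prefixes, with means of 3395 in 051716, 3614 in 051816 and 3744 in the Ski-WT cells. With that number as a covariate the module difference between genotypes was -0.16. Over all filtered genes the mean log2 value per cell differed by -0.26, and the module mean relative to it by -0.33 in prefix 051716 and 0.07 in prefix 051816. The part of library quality in these differences was not tested.

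**Figure D3:**
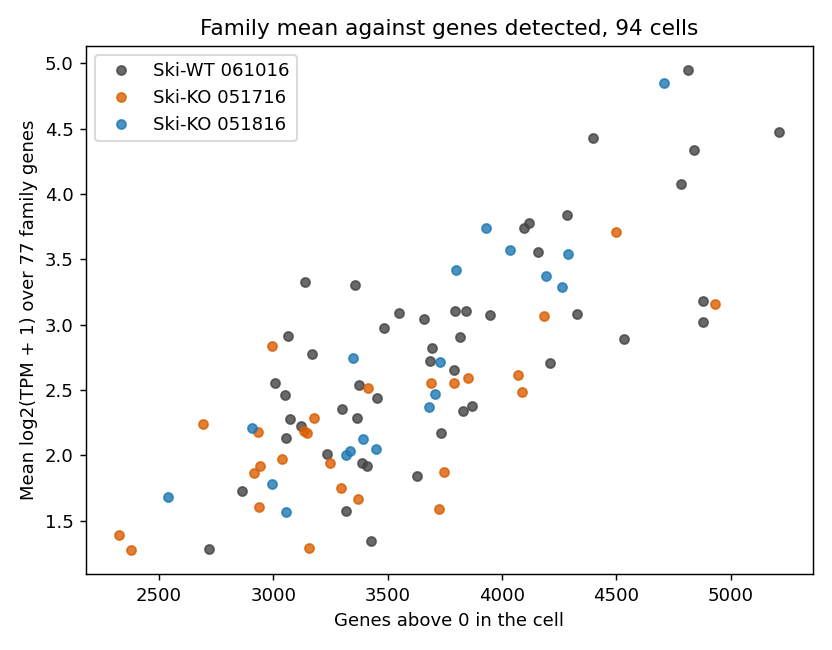
Mean log2(TPM + 1) over the 77 family genes (vertical axis) against the number of genes above 0 (horizontal axis), 1 point per cell, coloured by label prefix. Cells of all 3 prefixes lie along 1 rising band, with a Pearson correlation of 0.77 over 94 cells.

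Cells with a higher module mean also had a higher mean log2 value over nuclear genes of oxidative phosphorylation. The correlation between the module mean and the mean over the 80 nuclear oxidative phosphorylation genes was 0.82 over 94 cells, and 0.79, 0.81 and 0.84 within prefixes 051716, 051816 and 061016. Both measures share the library and its detection, since the oxidative phosphorylation mean itself had a correlation of 0.78 with the number of genes above 0. The mean over cytosolic ribosomal protein genes, which are found in nearly every cell, had a correlation of -0.07 with the module mean over all cells, and of 0.30, -0.04 and -0.19 within prefixes 051716, 051816 and 061016. With the number of genes above 0 these were -0.12 over all cells and 0.28, -0.02 and -0.40 within prefixes, so the signs differed between prefixes. Large and small subunit means had a correlation of 0.62. Single members, in contrast, hardly varied together from cell to cell. The median Spearman correlation over 2556 pairs of the 72 members was 0.05, with 0.02 over pairs of all 6240 filtered genes, and the highest pair, Mrpl22 with Mrpl28, reached 0.42.

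The difference between genotypes was then described gene by gene, as the mean log2 value over Ski-KO cells minus that over Ski-WT cells. A gene entered when 25% or more of either genotype's cells were above 0, as 72 members were. Of these, 41 were below the Ski-WT level in both Ski-KO prefixes and 8 were above it in both, where the same rule took 44.3% and 18.5% of all 6240 filtered genes. The remaining 23 members had opposite signs in the prefixes. The median difference of the family was -0.50, compared with -0.22 over all filtered genes, and it was -0.61 in prefix 051716 and -0.27 in prefix 051816, where all genes had -0.27 and -0.20. The values of single members ran from -2.94 to 1.52, and the middle 50% lay between -0.83 and -0.09. With the log2 ratio of mean TPM the family median was 0.15 and that of all genes -0.05, so the family's direction turned with this scale too. With the number of genes above 0 as a covariate the family had -0.22 and all genes -0.07, and after quantile normalization the family had -0.28 and all genes -0.01.

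A call was set at a difference of 1 or more on the log2 scale in both Ski-KO prefixes, in the same direction. By this rule 4 of the 72 members were lower, against 5.56% of all filtered genes, and 2 were higher, against 0.577%. The lower members were Mrpl18, Mrpl32, Mrpl11 and Mrps25, and the higher ones Mrps18c and Mrpl54. The share of lower members, 5.56%, was the same as the background to the digits given, and 2 higher members are too few to set against it. In prefix 051716 taken alone 23 of the 72 members were lower by 1 or more and 3 higher, where all filtered genes had 17% and 3.93%. In prefix 051816 alone 8 were lower and 8 higher, where all filtered genes had 13% and 6.36%. After quantile normalization 3 members were lower and 2 higher, where all filtered genes had 205 and 94 calls in place of 347 and 36.

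**Figure D4:**
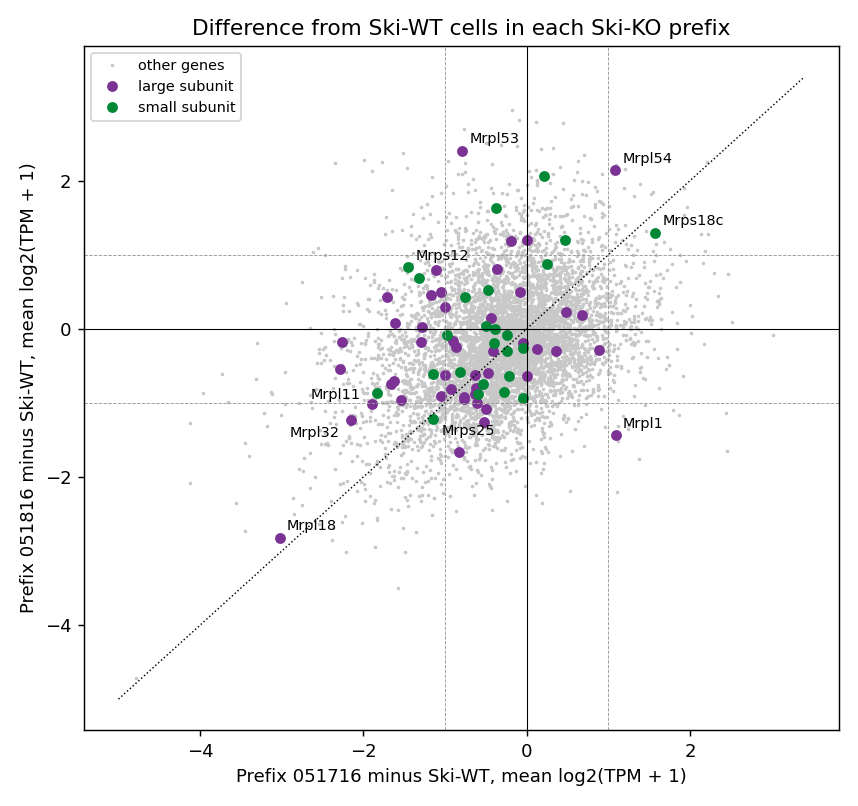
Mean log2(TPM + 1) minus its Ski-WT value, in prefix 051716 (horizontal axis) and prefix 051816 (vertical axis). Coloured points are the 72 members by subunit, grey points are the other filtered genes, dashed lines mark -1 and 1, and the dotted line marks equal values. Mrpl18 stands apart at the lower left (-3.03 and -2.82), and Mrps18c and Mrpl54 lie at the upper right.

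The shares of cells with a transcript were lower as well, mostly in prefix 051716. Of the 72 members, 63 had a smaller share of cells at 5 TPM or more in prefix 051716 than in the Ski-WT cells and 45 had a smaller share in prefix 051816. Over all filtered genes these proportions were 64.9% and 58.5%, against 87.5% and 62.5% of the members. The median member was found in 11.6 percentage points fewer cells in prefix 051716 and in 3.67 points fewer in prefix 051816, while the median over all filtered genes was 4.17 and 2.63 points lower. Among cells at 5 TPM or more, the median was higher in Ski-KO than in Ski-WT cells for 41 of the 72 members (56.9%), near the 50.2% of all filtered genes. A smaller share of cells together with a higher mean TPM was seen in 31 members (43.1%) and in 21.8% of all filtered genes. Across the 77 genes the Spearman correlation between the shares in Ski-KO and Ski-WT cells was 0.84, and between the shares in the smaller groups of the Ski-KO prefixes it was 0.65.

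Mrpl18 was named beforehand as an outlier, with earlier results of these data known, so its rank is a description. It had the lowest difference of the family and the 5th lowest of all 6240 filtered genes. It encodes a large subunit protein whose bacterial counterpart binds the small ribosomal RNA of the central protuberance. In prefix 051716 its log2 value ran from 0 to 10.6 with a median of 0.94, in prefix 051816 from 0 to 10.3 with a median of 1.01, and in the Ski-WT cells from 0 to 10.6 with a median of 8.03. Ranges therefore overlapped fully, while a high value was found in most Ski-WT cells and in a minority of the cells of both Ski-KO prefixes. Mrpl18 reached 5 TPM in 37 of 48 Ski-WT cells (77.1%, exact 95% interval 62.7% to 88.0%). The Ski-KO count was 19 of 46 (41.3%, interval 27% to 56.8%), made up of 11 of 27 and 8 of 19. These intervals are of Clopper-Pearson type, cover counting error over cells only and are no test between genotypes. The log2 difference was -2.94, and it was -3.03 for 051716 and -2.82 for 051816.

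Fewer cells held Mrpl18 in both Ski-KO prefixes. Among cells at 5 TPM or more, the median was 8.95 in prefix 051716, 8.05 in prefix 051816 and 8.85 in the Ski-WT cells. Mean expression was 216 TPM against 370.1 TPM, a 1.71-fold difference of linear means. On the scale of log2 ratios of mean TPM this was -0.77, which is short of the call. The member next in size among the lower values was Mrpl32 at -1.78.

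In the mouse genome Mrpl18 starts back to back with Tcp1, which encodes a subunit of the cytosolic chaperonin that folds actin and tubulin. The RefSeq start sites are 238 bases apart on chromosome 17 and point away from each other, so transcripts from these starts do not overlap, while the RefSeq span of Mrpl18 over all its transcripts reaches past the Tcp1 start. The 250 bases before the Mrpl18 start, from RefSeq on GRCm38.p6 at chr17:12916092-12916341 on the minus strand, are shown because the Tcp1 start lies within this stretch. Capitals mark a match to CCGGAAG, the core bound by ETS factors such as GABP, which starts 240 bases before the start site.
Mrpl18: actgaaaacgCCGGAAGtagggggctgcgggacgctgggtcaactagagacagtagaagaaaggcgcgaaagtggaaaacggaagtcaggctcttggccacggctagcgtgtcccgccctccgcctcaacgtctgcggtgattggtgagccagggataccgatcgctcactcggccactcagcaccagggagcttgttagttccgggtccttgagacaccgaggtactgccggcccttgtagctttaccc
Tcp1 was also lower in the Ski-KO cells on the log2 scale, by -1.07, with -1.22 in prefix 051716 and -0.86 in prefix 051816. The share of cells at 5 TPM or more was nearly even, at 27 of 46 Ski-KO cells (58.7%) and 30 of 48 Ski-WT cells (62.5%), whereas the median of those cells was 6.64 against 8.85, with 6.37 in prefix 051716 and 7.27 in prefix 051816. The kit used does not mark strand, so reads from a stretch covered by both annotated spans cannot be told apart.

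**Figure D5:**
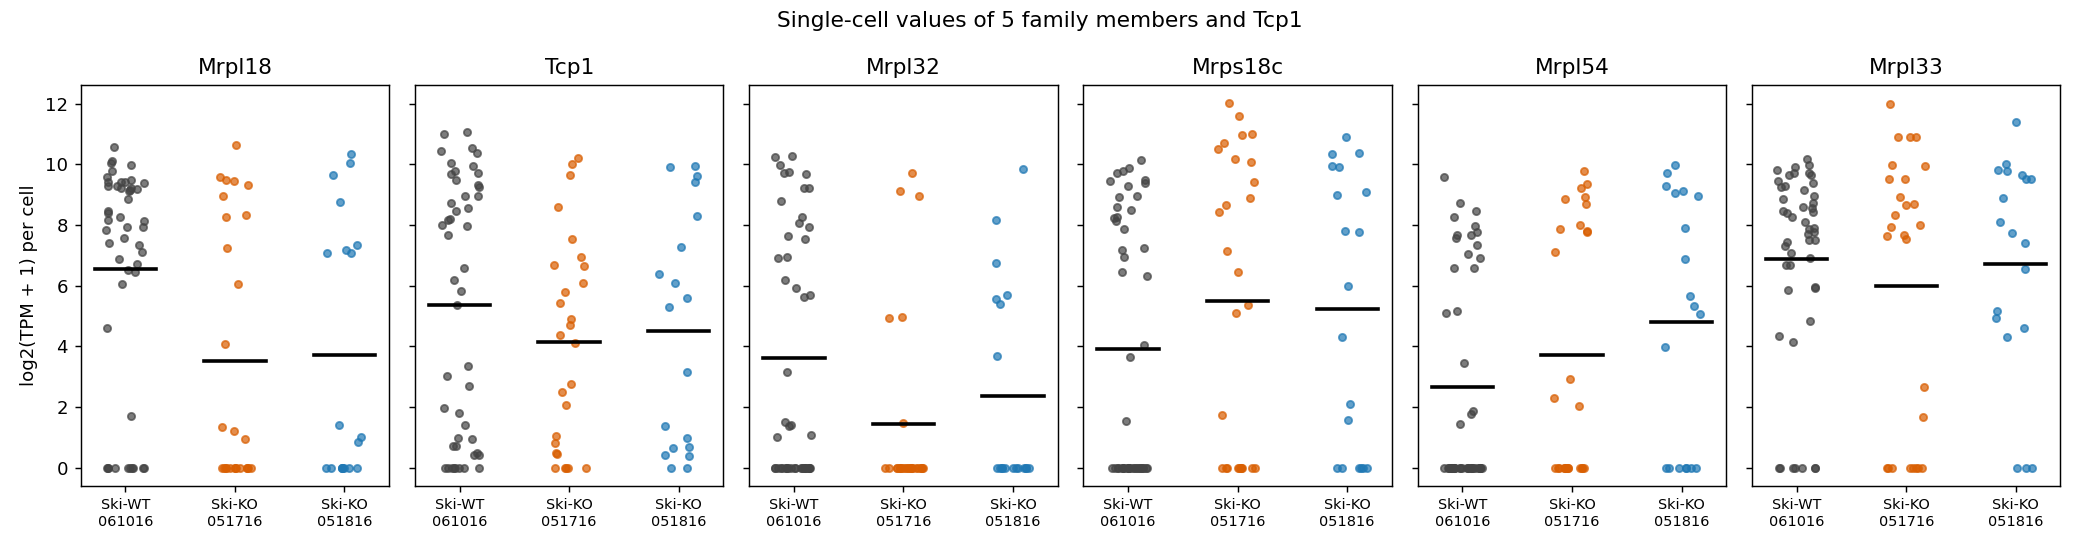
Values of log2(TPM + 1) per cell (vertical axis) for Mrpl18, its neighbour Tcp1, Mrpl32, Mrps18c, Mrpl54 and Mrpl33, by label prefix on the horizontal axis. Points are cells and black lines are means over cells, and most genes split into cells at or near 0 and cells at high values. For Mrpl18 the line is at 6.54 in the Ski-WT cells and at 3.51 and 3.72 in the Ski-KO prefixes.

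Mrpl32 encodes a large subunit protein with a bacterial counterpart, and its processing by a mitochondrial protease is a step of ribosome assembly. It ran from 0 to 9.73 in prefix 051716 and from 0 to 9.85 in prefix 051816, both with a median of 0, and from 0 to 10.3 in the Ski-WT cells with a median of 1.22. The ranges overlapped, and cells with the transcript were fewer in both Ski-KO prefixes, at 5 of 27 and 7 of 19, than among the Ski-WT cells, at 21 of 48. Mean expression was 74.4 TPM in the Ski-KO and 194 TPM in the Ski-WT cells, and the log2 difference was -2.16 in prefix 051716 and -1.24 in prefix 051816. Among cells at 5 TPM or more, the median was 8.95 over 5 cells of prefix 051716, 5.69 over 7 cells of prefix 051816 and 8.06 over the 21 Ski-WT cells, so the Ski-KO prefixes lay on either side of the Ski-WT value. Upstream sequence of this gene is given for comparison with Mrpl18, as the 250 bases before the RefSeq start on GRCm38.p6 at chr13:14613038-14613287 on the minus strand. Capitals mark a match to the core bound by NRF1, a regulator of nuclear genes for mitochondria, which starts 87 bases before the start site.
Mrpl32: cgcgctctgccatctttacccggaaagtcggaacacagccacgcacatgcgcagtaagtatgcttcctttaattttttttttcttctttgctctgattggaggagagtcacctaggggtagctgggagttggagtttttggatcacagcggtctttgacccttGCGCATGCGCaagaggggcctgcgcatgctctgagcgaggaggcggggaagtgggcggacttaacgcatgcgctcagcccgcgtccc

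The other lower members were found in few cells. Mrpl11, whose bacterial counterpart forms part of the site where translation factors bind, was at 5 TPM or more in 1 of 27 cells of prefix 051716, 4 of 19 of prefix 051816 and 16 of 48 Ski-WT cells. Its mean was 7.76 TPM against 46.9 TPM, and its log2 differences were -1.90 and -1.01. Mrps25, a mitochondria-specific protein of the small subunit, reached 5 TPM in 6, 5 and 20 cells in the same order and had differences of -1.15 and -1.21. Its gene span overlaps that of Nr2c2, so its reads are uncertain without strand. The same holds for other members, since 25 of the 77 overlap another RefSeq gene. For 20 of these the other gene is in the table, as for Mrpl24, Mrpl53, Mrps6 and Mrps23. Mrpl17, whose bacterial counterpart lies near the tunnel exit, was close to the limit, with -1.54 in prefix 051716 and -0.96 in prefix 051816, and it was found in 12, 9 and 33 cells. Mrpl28 (-2.29) and Mrpl20 (-2.26), named after their values were seen, were the members with differences under -2 in prefix 051716 that came back toward the Ski-WT level in prefix 051816 (-0.54 and -0.18).

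Mrps18c had the reverse pattern. It encodes the protein of the small subunit that corresponds to bacterial S18, and it has a pair of relatives in the same ribosome, Mrps18a, which sits in the large subunit despite its symbol, and Mrps18b, which sits elsewhere in the small one. Its log2 values ran from 0 to 12.02 with a median of 6.45 in prefix 051716, from 0 to 10.9 with a median of 5.98 in prefix 051816 and from 0 to 10.2 with a median of 0.77 in the Ski-WT cells. Ranges overlapped almost fully, and the highest cells were in prefix 051716. Linear means were 584 TPM for Ski-KO and 208 TPM for Ski-WT, which is 2.81-fold apart. The log2 difference was 1.46, split into 1.57 for 051716 and 1.30 for 051816. It ranked 27th from the top of the 6240 filtered genes, which is a description, since Mrps18c too was named beforehand as an outlier. The shares of cells at 5 TPM or more were close, with 23 of 48 for Ski-WT (47.9%, interval 33.3% to 62.8%) and 27 of 46 for Ski-KO (58.7%, interval 43.2% to 73.0%), while the median of those cells was 9.43 against 8.49, with 9.76 for 051716 and 9.08 for 051816.

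The relatives of Mrps18c did not share its direction. Mrps18a reached 5 TPM in 17 Ski-WT and 13 Ski-KO cells, with differences of -0.63 in prefix 051716 and -0.62 in prefix 051816 and mean levels of 95.8 TPM in the Ski-WT and 88.5 TPM in the Ski-KO cells. Mrps18b was found in 3 Ski-KO and 10 Ski-WT cells, with differences of -1.15 and -0.60 and means of 36.9 and 104 TPM. The difference between the relatives was not tested, and Mrps18a overlaps Rsph9. For Mrps18c, the 250 bases before the RefSeq start on GRCm38.p6 lie at chr5:100798509-100798758 on the plus strand. They are shown because they hold 2 of the motifs searched, a CACGTG box starting 163 bases before the start site and a reverse match to CCGGAAG starting 156 bases before it, both in capitals.
Mrps18c: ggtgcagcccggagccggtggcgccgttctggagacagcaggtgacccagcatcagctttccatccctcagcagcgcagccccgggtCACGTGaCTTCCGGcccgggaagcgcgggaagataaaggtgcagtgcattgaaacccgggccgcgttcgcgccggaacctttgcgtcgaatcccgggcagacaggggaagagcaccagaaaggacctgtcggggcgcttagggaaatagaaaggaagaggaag

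Mrpl54, a mitochondria-specific protein of the large subunit, was the other higher member. Its log2 value ran from 0 to 9.77 with a median of 2.03 in prefix 051716, from 0 to 9.97 with a median of 5.34 in prefix 051816 and from 0 to 9.57 with a median of 0 in the Ski-WT cells. The median Ski-WT cell was thus at 0, and the median cell of either Ski-KO prefix was not. Of the Ski-WT cells 17 held 5 TPM or more, and of the Ski-KO cells 24, with means of 74.6 and 198 TPM. Differences were 1.08 in prefix 051716 and 2.14 in prefix 051816, the former just past the limit. Mrps23, named after its values were seen, had 0.21 and 2.06 and the highest log2 ratio of mean TPM in the family, 2.63. Its means were 244 TPM in the Ski-KO and 38.5 TPM in the Ski-WT cells, and its span overlaps that of Cuedc1. Mrps23 reached 5 TPM in 14 of 46 Ski-KO and 13 of 48 Ski-WT cells. Its highest log2 value was 11.9 in prefix 051816, 10.3 in prefix 051716 and 9.12 in the Ski-WT cells, and high single cells weigh on linear means.

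Some members separated the Ski-KO prefixes more than either genotype label. Mrpl53, a mitochondria-specific protein of the large subunit, was at 5 TPM or more in 4 of 27 cells of prefix 051716, 11 of 19 cells of prefix 051816 and 15 of 48 Ski-WT cells. Its differences were -0.79 and 2.41, and its span overlaps that of Ccdc142. For Mrpl1, whose bacterial counterpart forms a mobile stalk next to the exit site of tRNA, the counts were 10, 1 and 11 and the differences 1.09 and -1.43. Mrps12, whose bacterial counterpart lies at the decoding centre, had counts of 6, 10 and 21 and differences of -1.45 and 0.83. These were the members with the largest gaps between the Ski-KO prefixes, 3.19, 2.53 and 2.28, against a median gap of 0.63 over the 72 members and 0.55 over all filtered genes.

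Members were next grouped by subunit, which was taken from the symbol except for Mrps18a and Mrps30. Of the 77, 50 were counted in the large subunit, with Mrps18a and Mrps30 there, and 27 in the small one. Large subunit genes had a median level of 2.48 on the log2 scale and were found in a median of 35.1% of cells, against 1.69 and 22.3% for small subunit genes. Their median difference was -0.62 over 47 filtered members, with -0.77 in prefix 051716 and -0.29 in prefix 051816. Small subunit genes had -0.31 over 25, with -0.40 and -0.09. Calls were 3 lower (6.38%) and 1 higher (2.13%) in the large subunit. In the small one they were 1 lower (4%) and 1 higher (4%), where all filtered genes had 5.56% and 0.577%. Large subunit genes were thus lower by 0.31 relative to small ones in the median, a value of -0.31 that came to -0.066 after quantile normalization, and whether the subunits differ was not tested.

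Proteins with a bacterial counterpart numbered 46 and those without 31. The former had the higher median level, 2.74 against 2.10, and 45 and 27 of them passed the filter. Their median differences were almost equal, at -0.51 and -0.49. Within the large subunit the 29 filtered genes with a counterpart had -0.77 and the 18 without had -0.39, while in the small subunit the order was reversed, with -0.25 over 16 genes and -0.51 over 9. All of these medians were below 0, and ancestry of the protein and size of the difference had no common order in the subunits.

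Upstream sequence was available from RefSeq for 68 of the 77 members, in 74 windows of 250 bases before a start site. The ETS core CCGGAAG, searched on both strands, was found in 23% of these windows and in 6.91% of 32851 windows of all genes. The NRF1 core, on both strands, was found in 13.5% and 3.74%, AAGATGGCG, a site of YY1, in 2.70% and 0.606%, and the CACGTG box in 9.46% and 6.02%. Family windows were also richer in G and C, with a median of 58.4% against 52.4%, and the motifs searched are rich in these bases, so the shares are given as descriptions. A match is not a bound site. Both the lowest member, Mrpl18, and the higher member Mrps18c had an ETS core, as did Mrps18a, whereas Mrpl33 and Mrps18b had none of the motifs in this window. The match of Mrpl18, which starts 240 bases before its start site, covers the Tcp1 start, 238 bases away.

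Other genes of mitochondrial gene expression were set beside the family. Over all filtered genes 5.56% were called lower and 0.577% higher. The 6 mitoribosomal proteins listed under other symbols had a median difference of 0.22, made up of -0.47 for 051716 and 0.85 for 051816, and none was called. Dap3, a GTP-binding protein of the small subunit also known in cell death, came nearest with -0.84 and -1.18, and Ptcd3, an RNA-binding protein of the small subunit, had 0.42 and 0.56. Of 21 assembly and RNA modification genes only 8 passed the filter, with a median of -0.21 and 1 called lower (12.5%). This was Mtg1, a GTPase of large subunit assembly, which reached 5 TPM in 10 Ski-WT and 2 Ski-KO cells, with differences of -1.46 and -1.49. Mterfd1, a factor of the same list, had -1.76 and -0.996, just short of the limit in prefix 051816. Rbfa, also of this list, went the other way with 0.69 and 0.52.

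Of 15 translation factors 10 passed, with a median of -0.39, 1 called lower (10%) and 0 higher. Mrrf, which recycles the ribosome after termination, was called with -1.02 and -1.08, and Oxa1l, which inserts new proteins into the inner membrane, had -0.97 and -1.41. Of 17 mitochondrial aminoacyl-tRNA synthetases 7 passed and none was called, with a median of -0.15, and of 11 genes of mitochondrial DNA and transcription 7 passed and none was called, with -0.28. The import list of 23 genes had 20 filtered members and a median of -0.36. Of these 20, 4 were called lower (20%, against 5.56% of all filtered genes) and 0 higher. Among the lower were Timm10, a chaperone of the intermembrane space (-2.17 and -1.48), and Timm23, the channel of the inner membrane (-1.26 and -1.52). Below the Ski-WT level in both prefixes were 9 of the 20. Another 4 were above it in both, among them Timm10b (0.78 and 1.05) and Timm21 (0.38 and 0.28).

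The lists nearest in function and in kind differed in their medians. Nuclear oxidative phosphorylation genes had a median of -0.24 over 76 filtered members, with -0.37 in prefix 051716 and 0.03 in prefix 051816. Called lower were 2 (2.63%, against 5.56% of all filtered genes), Ndufs8 (-1.26 and -1.42) and Uqcrc1 (-1.92 and -1.24), and 0 were called higher. Below the Ski-WT level in both prefixes were 27 of the 76. Another 16 were above it in both, among them Ndufa6 (0.93 and 0.67) and Atp5c1 (0.67 and 1.21). Cytosolic ribosomal proteins had 0.11 over 79, with 0.17 and 0.07 and no calls in either direction. These lists sit at different levels, with median log2 values of 5.48 and 10.8 against 2.40 for the mitochondrial ribosomal proteins. These medians are descriptions of the lists in these cells.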

How the data were processed

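Per the submitters' processing notes, the tools were RSEM and Bowtie2 and the build was mm9, with no role or version given. cDNA was made with SMARTer chemistry and libraries with Nextera XT, per the labels' protocols. The values deposited by the authors are log2(TPM + 1), read from the values, which sum to between 997625 and 999995 TPM per cell after back-transformation. They keep no depth.

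Cells were grouped by title into Ski-KO and Ski-WT. Differences are means of log2 values over cells, for the 6240 genes that 25% or more of either genotype's cells held above 0. A call needed 1 or more in both Ski-KO prefixes, and 5 TPM, less a tolerance of 0.005 for rounding, counted as present. Named members were Mrpl18, Mrps18c and its relatives, the 8 highest and 4 lowest by level, up to 5 at each end by the smaller prefix difference where it exceeded the gap between prefixes, and the 3 with the largest gap. Only 2 qualified at the high end. Further members and Tcp1 were named after their values were seen. The members, the 8 gene lists and the naming rule were chosen with earlier results of these data known. Subunit was taken from the symbol, with Mrps18a and Mrps30 moved to the large subunit from textbook knowledge. Bacterial counterpart was assigned from textbook knowledge. RefSeq tables of GRCm38, a different build from mm9, gave sequences, overlaps and gene order only, and Mrpl54 had no upstream window there. Scripts were tested on simulated data and ran in Python 3.11.15 with scipy 1.17.1, pandas 2.3.3, matplotlib 3.10.9 and numpy 2.4.6. Alternatives covered pseudocounts, scaling, filters, detection and prefixes.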

Additional observations from a re-analysis of the deposited data

How the results depend on the processing

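No paired analysis was possible because the cell numbers shared by the genotypes only count cells and no result comes from a test. A difference counted as moved when it changed by more than the SD over the 2 Ski-KO prefixes. Counts of members have no such SD and were judged by their ratio to the main count. The family median (-0.50) turned to 0.15 and the module mean difference (-0.42) to 0.18 with the log2 ratio of linear means. The family median was -0.76 with a pseudocount of 0.1 and -0.22 with the number of genes above 0 as a covariate. The count of 4 lower members (5.56% of all genes) became 10 with a pseudocount of 0.1 (11.5%), 1 with a pseudocount of 10 (1.28%), 23 in prefix 051716 alone (17%) and 8 in prefix 051816 alone (13%). The count of 2 higher members (0.577% of all genes) became 0 with a pseudocount of 10 (0.080%) and 8 in prefix 051816 alone (6.36%). The large minus small subunit difference (-0.31) was -0.19 with a pseudocount of 10, -0.11 with linear means, -0.066 after quantile normalization and -0.50 with a filter of 50% of cells. Mrpl18 (-2.94) was -3.86 and -1.86 with pseudocounts of 0.1 and 10, -0.77 with linear means, -3.11 rescaled without the 100 highest genes, -2.55 after quantile normalization and -2.24 with the covariate. Mrps18c (1.46) was 1.95 and 1.03 with pseudocounts of 0.1 and 10 and 1.70 with the covariate. With linear means 5 members were lower, where 10.1% of all genes were. Mrpl18 was not among these 5, of which 2 were shared with the main 4. Mrps25 was not called after quantile normalization or with the covariate. Equal weight to the Ski-KO prefixes was added after seeing the data. It moved none of these differences past the SD and left the counts of lower and higher members as they were. The causes of these moves were not tested, and depth is unknown.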
